A study of Mus musculus with 6 samples.

Results

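The sarcoglycans are single-pass membrane proteins that form a complex with dystroglycan and dystrophin in the muscle fibre membrane, and sarcospan and the repair proteins dysferlin and caveolin-3 act at the same membrane. Expression of these genes was compared in fibre tissue captured at neuromuscular junctions (NMJs) and away from them. The list named 9 genes: the sarcoglycans Sgca, Sgcb, Sgcd and Sgce, sarcospan (Sspn), and the membrane repair and caveolar genes Dysf, Cav3, Trim72 and Myof. A gene was measured where a gene-level row of the deposited table carried its symbol and no other, taking the row with the highest mean. This held for 6 of the 9 genes, among 14860 distinct symbols and 23332 rows in all. Sgcb, Trim72 and Myof had no such row and were not analysed here.

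The tissue was tibialis anterior muscle, a fast leg muscle, of ICR mice aged 16 weeks, an outbred strain, and the labels name no genotype or drug treatment. Per the labels' protocols, a stain for acetylcholinesterase, applied on ice for 10 min, marked the NMJs for laser capture: 9973 NMJs were cut out, and a matching area of the same fibres away from NMJs was taken. There were 3 NMJ arrays and 3 non-NMJ arrays, each made from 10 ng of total RNA that was amplified and hybridised to an Affymetrix mouse exon array. The labels used here do not say which arrays share animals, so p-values measure only the spread between these arrays, whose small number also limits the precision.

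In the muscle fibre sarcoglycans, the alpha, beta and delta forms among them, assemble into a complex that steadies dystrophin and dystroglycan at the membrane, and loss of any of these 3 causes limb-girdle muscular dystrophy in humans. Epsilon-sarcoglycan, the product of Sgce, is a close relative of alpha-sarcoglycan that many tissues besides muscle express. Sarcospan, a protein with 4 membrane spans, joins the complex beside the sarcoglycans. When a fibre membrane tears, dysferlin, a calcium-binding ferlin, takes part in the vesicle fusion that reseals it, and caveolin-3, the muscle caveolin, shapes caveolae and binds dysferlin.

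The upstream sequences of the member whose repair function is best known, Dysf, and of the muscle genes Cav3 and Sgca are given so that their letters can be set beside the array values that follow. Each is the 250 bases before a transcription start in RefSeq (GRCm38.p6), 5′ to 3′ on the gene's strand. Dysf has starts on the plus strand of chromosome 6 with upstream windows at chr6:84008348-84008597 and chr6:84019136-84019385. The window of Cav3 is chr6:112459255-112459504 (plus strand) and that of Sgca is chr11:94976328-94976577 (minus strand). Capitals mark matches to the E-box CANNTG, the site of myogenic basic helix-loop-helix factors.
Dysf, first start: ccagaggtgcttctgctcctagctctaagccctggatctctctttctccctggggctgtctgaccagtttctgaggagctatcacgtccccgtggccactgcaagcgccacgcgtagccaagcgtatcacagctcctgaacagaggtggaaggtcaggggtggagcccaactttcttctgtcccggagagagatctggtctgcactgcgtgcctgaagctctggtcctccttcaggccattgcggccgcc
Dysf, second start: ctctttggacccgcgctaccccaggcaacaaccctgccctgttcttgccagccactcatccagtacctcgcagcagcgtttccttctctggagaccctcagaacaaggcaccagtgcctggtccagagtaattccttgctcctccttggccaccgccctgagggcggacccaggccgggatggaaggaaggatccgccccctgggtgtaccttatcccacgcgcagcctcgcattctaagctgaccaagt
Cav3: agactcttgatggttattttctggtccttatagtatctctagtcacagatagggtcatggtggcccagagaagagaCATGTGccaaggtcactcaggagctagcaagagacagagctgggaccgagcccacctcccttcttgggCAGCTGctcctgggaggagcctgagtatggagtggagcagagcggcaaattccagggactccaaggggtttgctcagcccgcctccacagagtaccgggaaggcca
Sgca: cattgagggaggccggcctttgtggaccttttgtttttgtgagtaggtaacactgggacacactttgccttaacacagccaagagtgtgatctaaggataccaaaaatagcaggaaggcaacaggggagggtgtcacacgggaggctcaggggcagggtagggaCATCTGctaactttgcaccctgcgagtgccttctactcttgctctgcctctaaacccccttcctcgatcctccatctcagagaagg

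The E-box reads the same on both strands, and 66.2% of all 32851 upstream windows in the table held at least 1. Cav3 held 2, CATGTG starting 174 bases before the transcription start and CAGCTG starting 106 bases before it. Sgca held 1, CATCTG, 86 bases before its start, and the windows of Dysf held 0 at either start. The upstream windows of Sspn and Sgcd, not printed, held E-boxes at 1 of 2 starts and at the 1 start listed. The ETS motif CCGGAA, known from promoters of synaptic genes, was searched on both strands and occurred in 0 windows of these 5 genes, against 12% of all windows. The muscle motif CATTCC, on either strand, occurred in the windows of Sspn and Sgcd and in 12.6% of all windows. These are matches of letters and say nothing of binding. Sgce had no entry in the table.

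Of the 6 measured genes, Sgce and Dysf rose in NMJ regions and 0 fell, by limma at an adjusted p under 0.05 over all rows. Sgce was 2.45-fold higher and Dysf 1.29-fold higher, while Sgca, Sgcd, Sspn and Cav3 had values slightly lower in NMJ regions that did not pass the test. Over all rows, 14.4% were called higher and 8.63% lower, 23% in all, and the 2 of 6 is read against these shares. The values of the NMJ and non-NMJ arrays did not overlap for 4 of the 6 genes, against 41% of all rows. The median log2 difference, NMJ minus non-NMJ, was -0.07 over the 6 genes and -0.01 over all rows. The median of the 6 genes was -0.21 after median centring, -0.04 without non-NMJ replicate 2 and -0.05 without NMJ replicate 3.

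**Figure D1:**
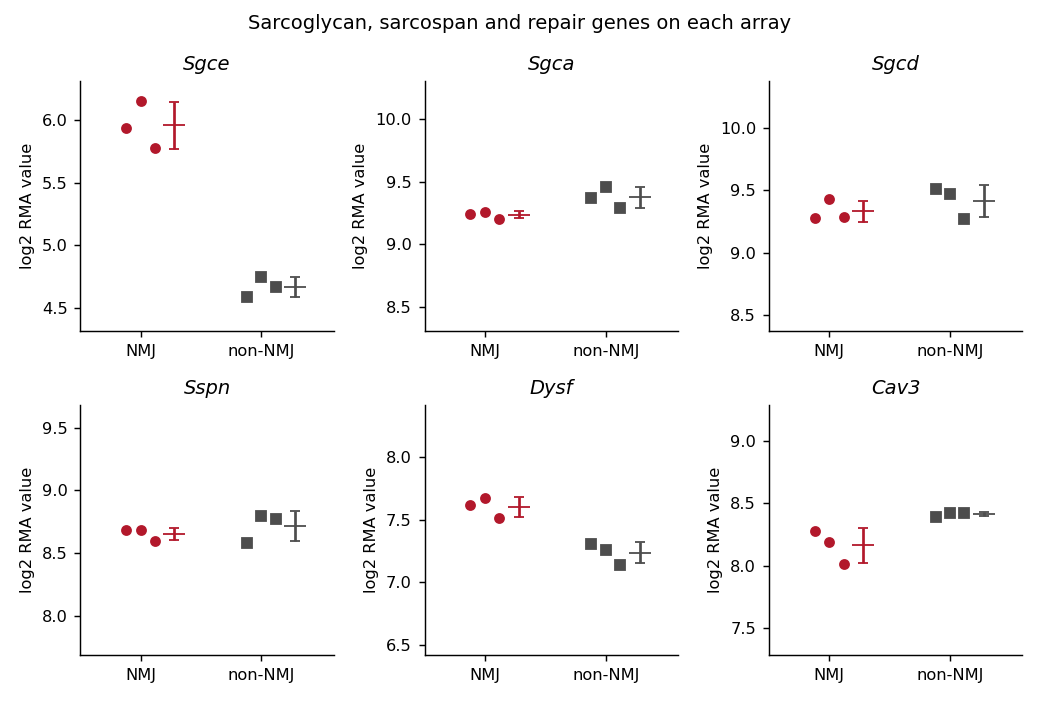
Log2 RMA values of the 6 measured genes (y axis, each panel spanning the same 2 log2 units) on the NMJ arrays (red circles) and the non-NMJ arrays (grey squares), with the mean and SD of each region beside its 3 points. The panel of Sgce has the widest gap, with NMJ values of 5.78 to 6.16 above non-NMJ values of 4.59 to 4.75, and the groups of Sgcd and Sspn overlap.

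Sgce (row 6951352) had log2 values of 5.94, 6.16 and 5.78 in the NMJ samples, against 4.59, 4.75 and 4.67 in the non-NMJ samples. Every NMJ array stood more than 1 log2 unit above every non-NMJ array. The log2 difference was 1.29 ± 0.12 (SE, n = 3 per region; limma adjusted p = 0.000941), and its 95% interval ran from 0.999 to 1.58. Absolute differences larger than that of Sgce were found in 1073 of the 23332 rows. On the non-NMJ arrays Sgce lay close above the array medians of 4.37 to 4.38, and how far such a level stands above background is unknown. The fold is therefore that of the RMA values. The call held in each of the 15 alternative fits, with differences of 1.07 to 1.38.

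Sgca (row 6791000), the alpha-sarcoglycan gene of striated muscle and the closest relative of Sgce among the members, had log2 values of 9.24, 9.26 and 9.21 in the NMJ samples, against 9.37, 9.46 and 9.29 in the non-NMJ samples. The NMJ arrays were all lower, by less than the values of Sgce were apart. The log2 difference was -0.14 ± 0.08 (SE; limma adjusted p = 0.305), with a 95% interval of -0.34 to 0.07, so a change of the size seen for Sgce lies outside it. After median centring, which subtracts each array's median, the difference of Sgca reached -0.28 and passed, with a limma adjusted p of 0.048; centring moved the median of all rows from -0.01 to -0.15.

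The relatives Sgca and Sgce were set against each other within each array, where the probe effects of both rows cancel between regions. Sgca minus Sgce was 3.28 ± 0.16 log2 units on the NMJ arrays and 4.71 ± 0.08 on the non-NMJ arrays (SD, n = 3 each). The change of -1.43 gave p = 0.1 in an exact two-sided permutation test over all 20 splits. This is the smallest p that 3 arrays against 3 allow, so the change cannot pass 0.05 here. The change is fixed by the differences of both rows given above, mostly that of Sgce, and adds no support beyond them. Only the change between regions is read from this contrast, since the level of 1 row cannot be set against that of another.

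Sgcd (row 6787830), the delta-sarcoglycan gene, is expressed in striated and smooth muscle. Its log2 values were 9.28, 9.43 and 9.28 in the NMJ samples, against 9.51, 9.47 and 9.27 in the non-NMJ samples, and the groups overlapped. The log2 difference was -0.08 ± 0.10 (SE; limma adjusted p = 0.613), with a 95% interval of -0.33 to 0.16. Sspn (row 6951054) had log2 values of 8.68, 8.68 and 8.60 in the NMJ samples, against 8.58, 8.80 and 8.77 in the non-NMJ samples. These groups overlapped as well, since non-NMJ replicate 1 had the lowest value of all. The log2 difference of Sspn was -0.06 ± 0.09 (SE; limma adjusted p = 0.689), with a 95% interval of -0.29 to 0.17.

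Dysf (row 6947475), the dysferlin gene, had log2 values of 7.62, 7.67 and 7.52 in the NMJ samples, against 7.31, 7.26 and 7.14 in the non-NMJ samples. Every NMJ value lay above every non-NMJ value. The log2 difference was 0.37 ± 0.09 (SE, n = 3 per region; limma adjusted p = 0.0332), with a 95% interval of 0.15 to 0.59. The call ended when any of the 6 arrays was left out (adjusted p = 0.0551 to 0.117), after quantile normalization (difference 0.22, adjusted p = 0.0537) and after median centring (0.23, adjusted p = 0.0981). A further row carried both Zfp638, the gene next to Dysf, and Dysf, and cannot be assigned to either. Its log2 difference of 0.41 did not pass (limma adjusted p = 0.093).

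Cav3 (row 6949011), the muscle caveolin gene, had log2 values of 8.28, 8.19 and 8.01 in the NMJ samples, against 8.39, 8.43 and 8.42 in the non-NMJ samples. All NMJ values were lower, and NMJ replicate 3 was the lowest. The log2 difference was -0.25 ± 0.10 (SE; limma adjusted p = 0.125), with a 95% interval of -0.49 to -0.01 before adjustment over all rows. It passed after quantile normalization (difference -0.32, adjusted p = 0.042) and after median centring (-0.39, adjusted p = 0.0256).

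**Figure D2:**
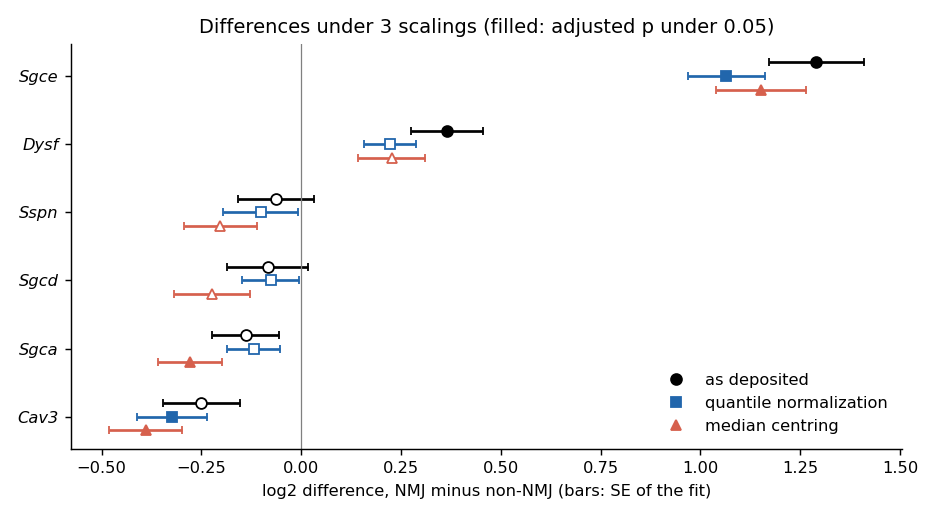
Log2 differences, NMJ minus non-NMJ (x axis), of the 6 measured genes under 3 scalings of the arrays: values as deposited (black circles), quantile normalization (blue squares) and median centring (red triangles), with SE of the fit as bars and filled symbols where the adjusted p is under 0.05. Sgce is filled under all 3 scalings, Dysf only as deposited, Cav3 only after rescaling and Sgca only after median centring.

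The order of the differences was therefore Sgce, Dysf, Sspn, Sgcd, Sgca and Cav3, and the 95% intervals of the last 4 overlapped each other. By profile over the 6 arrays, each centred on its own mean, the genes nearest to Sgce among 14405 named genes were Ttll1 (Euclidean distance 0.12 log2 units), Kirrel (0.16) and Smurf1 (0.18). They had log2 differences of 1.34, 1.36 and 1.22. The genes nearest to Dysf were Ezr (0.03), Fbrs (0.06) and Fig4 (0.06), with log2 differences of 0.38, 0.34 and 0.35. Likeness here means only a similar size of difference and a similar scatter over the 6 arrays.

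As a check of the region labels, Chrna1, Chrne and Musk, which encode receptor subunits and the kinase of the postsynaptic membrane, were 3.71 to 5.89 log2 units higher on the NMJ arrays. Correlations over all rows were 0.988 to 0.990 among NMJ arrays, 0.980 to 0.983 among non-NMJ arrays and 0.953 to 0.961 between regions. The 8 measured fast fibre markers, among them Ckm, the muscle creatine kinase gene, were above the array medians in both regions. Their mean log2 value per array was 12.39 to 12.43 in NMJ regions and 12.76 to 12.79 in non-NMJ regions. Of these markers 5 of 8 fell, against 8.63% of all rows.

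Markers of other cells were read on the same arrays. Over all rows 14.4% were called higher and 8.63% lower, and the count of each list is to be read against these shares. Of the Schwann cell list, 8 of 8 measured markers rose, and its mean log2 value per array was 7.18 to 7.27 in NMJ regions and 4.64 to 4.99 in non-NMJ regions. Of 11 measured fibroblast markers 8 rose, with means of 8.49 to 8.56 in NMJ regions and 7.12 to 7.33 in non-NMJ regions. Of 11 pericyte and smooth muscle markers 2 rose and 6 fell (6.56 to 6.62 in NMJ regions, 6.72 to 6.75 in non-NMJ regions), and of 12 endothelial markers 0 rose and 6 fell (6.23 to 6.32 in NMJ regions, 6.53 to 6.70 in non-NMJ regions). Of 9 macrophage markers 3 rose and 1 fell (5.50 to 5.68 in NMJ regions, 5.21 to 5.36 in non-NMJ regions), and of 10 satellite cell markers 2 rose and 1 fell (4.94 to 5.00 in NMJ regions, 4.66 to 4.75 in non-NMJ regions). Leaving out any single array left 7 higher Schwann cell markers, since Ngfr, a receptor gene named after its values were seen, no longer passed (adjusted p = 0.064 to 0.113), and it did not pass under either rescaling. Such omissions also left 3 lower fast fibre markers, 2 to 5 lower endothelial markers and 1 to 4 higher and 0 lower macrophage markers. By mean value, 3 Schwann cell, 2 macrophage and 4 satellite cell markers lay below the median of the non-NMJ arrays. Below the median of the NMJ arrays were 1 endothelial, 1 pericyte and smooth muscle, 2 macrophage and 3 satellite cell markers. How far such levels stand above background is unknown. The Schwann cell and fibroblast lists had median log2 differences of 2.50 and 1.18. The part of these markers in the differences of Sgce and Dysf, and in those of the partner genes described next, was not tested, and in such bulk samples fewer cells of a type and less RNA per cell cannot be told apart.

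**Figure D3:**
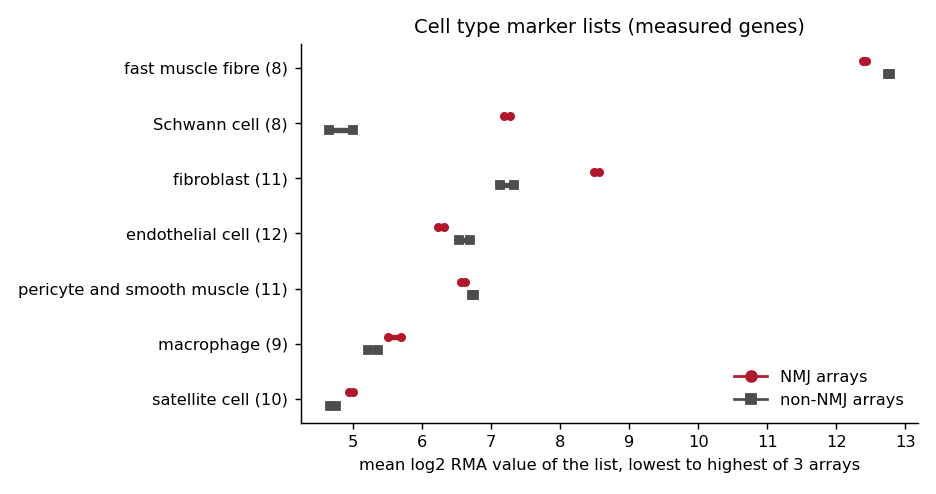
Mean log2 RMA value of each cell type marker list (x axis; number of measured genes in brackets), drawn from the lowest to the highest of the 3 NMJ arrays (red, upper) and of the 3 non-NMJ arrays (grey, lower). The Schwann cell and fibroblast lists lie higher on the NMJ arrays, at 7.18 to 7.27 and 8.49 to 8.56, than on the non-NMJ arrays, at 4.64 to 4.99 and 7.12 to 7.33.

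The dystrophin complex also holds the proteins that the sarcoglycans and sarcospan sit beside. Of 12 listed partners in the dystrophin complex, 8 were measured: 5 rose, 1 fell and 2 did not pass, with a median log2 difference of 0.87, against 14.4% of all rows called higher, 8.63% called lower and a median of -0.01. Dag1, which encodes both chains of dystroglycan, the laminin receptor at the centre of the complex, had log2 values of 10.20, 10.16 and 10.16 in the NMJ samples, against 9.09, 9.12 and 9.04 in the non-NMJ samples. No array of one region came within 1 log2 unit of the other region, and the log2 difference was 1.09 ± 0.08 (SE; limma adjusted p = 0.000321). Sntb2, a syntrophin that binds signalling proteins to the complex, rose by 2.27, and Dtna, the dystrobrevin that binds syntrophins, by 0.64 on the log2 scale. Utrn, the dystrophin relative, and Lama2, the laminin chain that dystroglycan binds, rose by 3.19 and 3.43. Nos1, the nitric oxide synthase anchored by syntrophin, fell by 0.62. Dmd (dystrophin) and Dtnb, named as the remaining 2 after their values were seen, had log2 differences of -0.11 and -0.29. The mean log2 value of Dtnb in NMJ regions, 4.41, lay below the NMJ array medians of 4.49 to 4.53. Dtnb was called lower in 6 of the 15 alternative fits, among them quantile normalization (-0.45, adjusted p = 0.0113) and median centring (-0.43, adjusted p = 0.0142), which made 2 lower genes. Sgcz, a further sarcoglycan gene, had no row with a single symbol and was not analysed here.

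Of 16 listed genes for the sugar chains of dystroglycan 8 were measured, of which 1 rose and 2 fell. Over all rows 14.4% were called higher and 8.63% lower, beside which these few calls are to be read. Pomk, a kinase of the mannose-linked chain, had a log2 difference of 0.54. Its mean log2 values were 4.77 in NMJ regions and 4.23 in non-NMJ regions, the latter below the non-NMJ array medians of 4.37 to 4.38. Dpm3, a subunit of dolichol phosphate mannose synthase, and Pomgnt1, a transferase that extends the chain, had log2 differences of -0.53 and -0.48. B4gat1, Pomt1 and Dpm2, which also act in building these chains, had log2 differences of 0.43, 0.18 and 0.18 that did not pass. With the replicate number as a block B4gat1 was called higher (limma adjusted p = 0.037), which made 2 higher genes. The difference of Pomt1 changed sign after quantile normalization. The list's median log2 difference of 0.11 became -0.02 after quantile normalization and -0.03 after median centring. It was 0.02 without non-NMJ replicate 3, 0.03 without NMJ replicate 1, 0.06 without NMJ replicate 2 and 0.19 without NMJ replicate 3. All 3 calls ended without non-NMJ replicate 1 or NMJ replicate 1. Without NMJ replicate 2, 1 lower call was left, and 1 higher call was left without non-NMJ replicate 2 or NMJ replicate 3.

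Relatives and partners of Cav3 in caveolae and membrane tubules moved both ways. Of 16 listed genes 14 were measured, of which 4 rose and 4 fell, against 14.4% of all rows called higher and 8.63% called lower. The median log2 difference of these 14 genes was 0.02. This median was -0.14 after quantile normalization, -0.12 with the arrays centred on their medians and -0.01 without non-NMJ replicate 3. Ehd4, an EH-domain ATPase that reshapes endocytic membranes, had log2 values of 9.62, 9.76 and 9.54 in the NMJ samples, against 5.88, 6.38 and 5.87 in the non-NMJ samples. It was 12.1-fold higher, and its groups lay far apart (log2 difference 3.60 ± 0.16, SE; limma adjusted p = 6.85e-05). Popdc2, a Popeye-domain membrane protein that binds cyclic AMP, rose by 1.57, Cavin1, a coat protein of caveolae, by 0.84, and Bin1, which curves the transverse tubule membrane, by 0.42 on the log2 scale. Cavin2, a relative of Cavin1, fell by 0.71 and Pacsin3, a membrane-bending protein bound to caveolae, fell by 0.70. Ehd2, an ATPase at the caveolar neck, and Cav1, the caveolin of many cell types, completed the lower genes, at -0.40 and -0.33, and were named after their values were seen. The last 2 calls ended when any array was left out, which left 2 lower genes. Bin1 did not pass without NMJ replicate 1 or NMJ replicate 2 (adjusted p = 0.0609 and 0.0544). Cavin4, a further cavin gene named after its values were seen, had a log2 difference of -0.31 that did not pass (limma adjusted p = 0.0623). It was called lower in 6 of the 15 alternative fits. Among them were quantile normalization (-0.34, adjusted p = 0.0137) and median centring (-0.45, adjusted p = 0.0133), which gave 6 and 5 lower genes.

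Partners of dysferlin in membrane repair moved both ways. Of 32 listed genes 24 were measured, of which 9 rose, 3 fell and 12 did not pass, with a median log2 difference of 0.25 against -0.01 over all rows. Over all rows 14.4% were called higher and 8.63% lower, beside which these counts are to be read. Higher rows made up 62.5% of the calls over all rows. Annexins, which bind membranes at a wound in response to calcium, included Anxa5, Anxa2 and Anxa6, which rose by 1.48, 1.23 and 0.58 on the log2 scale. Capn1, a calcium-activated protease, rose by 0.61. Smpd1, the acid sphingomyelinase released from lysosomes, fell by 0.78, and Parvb, whose human product binds dysferlin, fell by 0.51. After median centring 9 genes were higher and 7 lower, with a median of 0.11. Leaving out non-NMJ replicate 1, NMJ replicate 1 or NMJ replicate 2 left 6 higher genes.

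**Figure D4:**
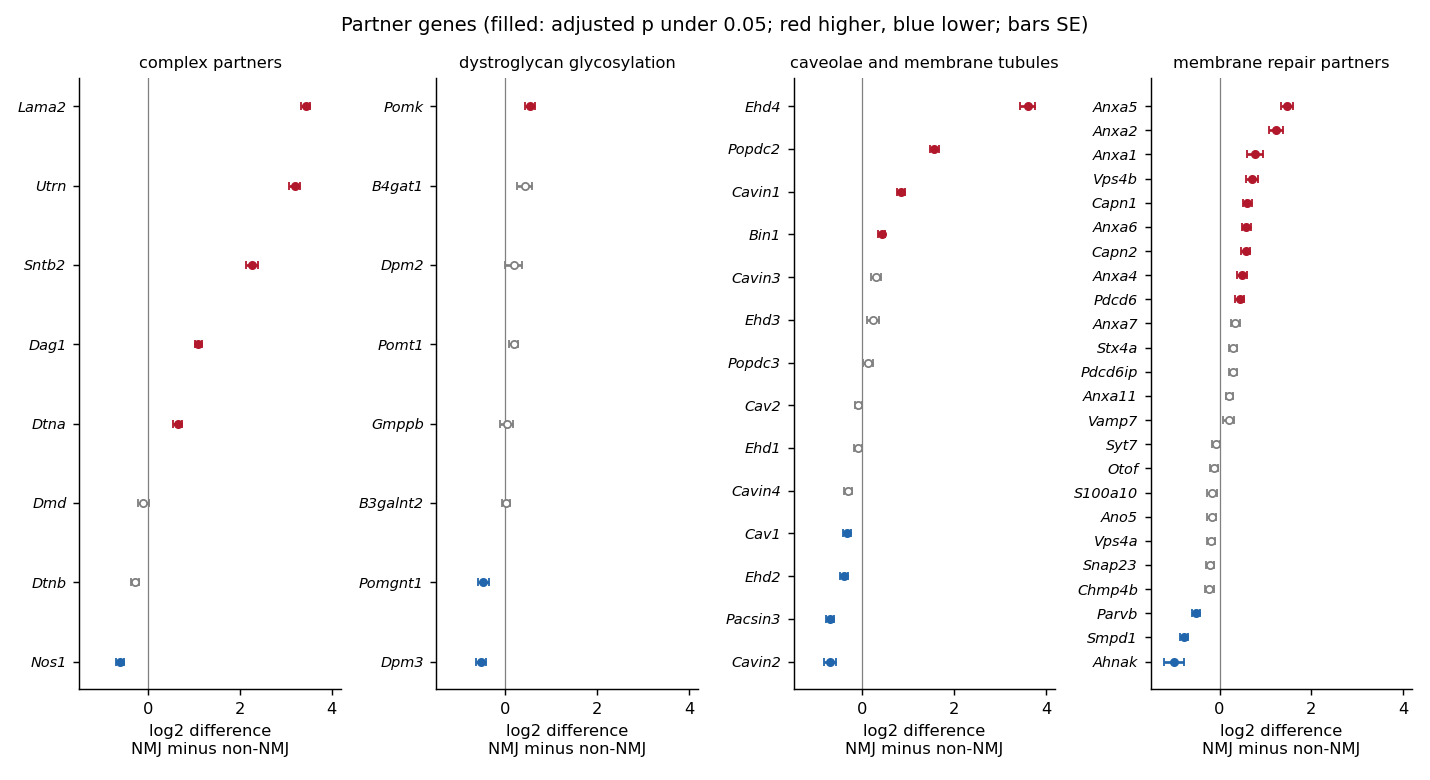
Log2 differences, NMJ minus non-NMJ (x axis), of the measured genes of the 4 partner lists, with SE of the fit as bars; red is higher and blue lower in NMJ regions at an adjusted p under 0.05, and open grey points did not pass. The complex partners span -0.62 to 3.43, the glycosylation genes -0.53 to 0.54, the caveolar and tubule genes -0.71 to 3.60 and the repair genes -0.996 to 1.48.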

How the data were processed

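Microarray values of 3 NMJ and 3 non-NMJ samples were analysed. The authors deposited gene-level log2 values that they had computed with RMA, which corrects background, normalizes the arrays and summarises probes, and the submitters' processing notes name Affymetrix Expression Console and Transcriptome Analysis Console; the sources used here give no version, setting or genome build. Values of 0.87 to 13.97 showed the log2 scale. No detection calls were used, and RMA compresses differences in dim and bright rows. The test was limma's (version 3.58.1, R 4.3.3; lmFit and eBayes, two-sided) on all 23332 rows, with Benjamini-Hochberg adjustment over all rows and a threshold of 0.05. Genes were named by the platform's gene table from the 14996 rows with 1 symbol.

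The members, the partner and marker lists and the tests were chosen with earlier results of these data known. All members were named, with up to 6 genes of each partner list by smallest unadjusted p, Sgcz whatever its values, the 3 nearest profiles of each called member, and Chrna1, Chrne and Musk. Promoter windows came from RefSeq (GRCm38.p6). The fit was also tested on simulated data. A difference that did not pass is not shown to be absent. Alternatives were the replicate block, other scalings, row filters, variance models, thresholds and omission of each array.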

Additional observations from a re-analysis of the deposited data

How the results depend on the processing

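The direction of each of the 6 genes was the same under every alternative run, and that of Sgca minus Sgce under quantile normalization (-1.18) and every omission of an array; median centring cannot change this difference within an array. Quantile normalization gave 3294 lower rows, against 2013 in the values as deposited, and median centring gave 3690; higher rows made up 46.6% and 41.7% of the calls, against 62.5%. Under these scalings 1 member (Sgce) was called higher, and 1 (Cav3) and 2 (Cav3 and Sgca) were called lower. The differences that crossed the threshold were those of Dysf (0.22 and 0.23), Cav3 (-0.32 and -0.39) and, after centring, Sgca (-0.28). An adjusted p under 0.01 left 2776 rows, 1891 higher and 885 lower, and 1 member, Sgce, higher. Omission of single arrays left 3373 to 4706 rows (2220 to 2879 higher, 1133 to 1888 lower), the lowest total without NMJ replicate 1; 1 member was called each time, 1 higher and 0 lower. The differences then ranged from 1.19 to 1.38 for Sgce, 0.32 to 0.41 for Dysf, -0.31 to -0.18 for Cav3, -0.18 to -0.10 for Sgca, -0.16 to -0.04 for Sgcd, -0.13 to -0.02 for Sspn and -1.504 to -1.344 for Sgca minus Sgce. The cause was not tested.

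With the replicate number as a block, 5064 rows were called and the same 2 members passed, Sgce at an adjusted p of 0.00702 and Dysf at 0.0453. Deviations of same-numbered arrays correlated at 0.05, 0.04 and 0.18, so the numbers were not taken to pair the arrays. Each measured gene had 1 row, so averaging rows gave no other value. The pairs Dysf and Myof and Sgcb and Sgcd were not run, since Myof and Sgcb had no row.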

Other observations

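The genes next to the members along the chromosome, from the gene order of RefSeq (GRCm38.p6), were read as a description chosen after the values were seen. Sspn, with a log2 difference of -0.06, lies between Bhlhe41, a clock-related repressor gene, and Itpr2, a calcium release channel gene, whose differences were -0.99 ± 0.10 and 0.99 ± 0.09 (SE; limma adjusted p = 0.00118 and 0.000753). The mean log2 values of Bhlhe41 were 6.45 in NMJ regions and 7.44 in non-NMJ regions, and those of Itpr2 were 5.86 in NMJ regions and 4.87 in non-NMJ regions. Sgca, at -0.14, lies next to the fibroblast marker Col1a1, which rose by 1.14 (limma adjusted p = 0.000296). Casd1, next to Sgce, had a log2 difference of 0.57 (limma adjusted p = 0.0445). Another 5 measured neighbours did not pass, with log2 differences of -0.04 (Hils1, beside Sgca), 0.09 (Timd4, beside Sgcd), -0.11 (Cyp26b1, beside Dysf), -0.21 (Ssu2) and 0.31 (Oxtr), the last pair beside Cav3. Over all rows 23% were called. By mean value Hils1 and Timd4 lay below the array medians in both regions, Ssu2 in NMJ regions (4.39) and Oxtr in non-NMJ regions (4.26). How far such levels stand above background is unknown. Peg10, on the other side of Sgce, had no row with a single symbol and was not analysed here.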
